A study of Mus musculus with 4 samples.

Results

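Erythroid lineage genes other than the globins were followed in haematopoietic stem cells (HSCs) sorted from mice with and without deletion of Gfi1b, which encodes a zinc finger repressor of transcription active in stem cells, megakaryocytes and red cell precursors. The set held 9 of the 37140 genes listed in all 4 libraries. It comprised Klf1, Epor, Tfrc, Alas2, Car1, Car2, Slc4a1, Rhd and Ermap, and its members were picked by symbol with their KO/WT values already known. Those values are therefore given as a description, with no test.

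There was 1 RNA-seq library for each of 4 groups of C57Bl6 mice: HSCs (Lin- cKit+ Sca1+ Cd48- CD150+) labelled Gfi1b WT, the same cells labelled Gfi1b KO, and CD41low CD9low HSCs labelled Gfi1b WT or Gfi1b KO. The CD41low/CD9low gate was set to leave out megakaryocyte precursors. For the first population the methods give no CD41 or CD9 gate, whereas the paper's results call it CD41+/CD9+ HSCs. Whether it also held CD41low/CD9low cells is therefore not settled. By the study's methods, KO mice were Rosa-Cre Gfi1b fl/fl and controls were Rosa-Cre Gfi1b wt/fl, so that the controls also carried a floxed allele and the Cre transgene, and all mice received tamoxifen. The design text instead describes flox/flox mice with or without ROSA-Cre, and the sample titles name Gfi1 where the genotype entries name Gfi1b. Rosa-CreER is active in nearly all cell types and not in HSCs alone. Bone marrow of several mice was pooled before the sort, so 1 library is 1 pool and nothing gives the spread between mice. No age is given. The antibody cocktail in the methods names no erythroid antigen, although lineage-positive marrow cells had first been depleted magnetically.

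Total counts were 50781007 and 41690708 in the HSC WT and KO libraries, and 12732079 and 19123185 in the CD41low/CD9low WT and KO libraries. The summed level of 12 HSC markers lay between 2400 and 3150 CPM (counts scaled to the library total) and none of them was at 0 in any library. Kit, part of the gate, was the largest of them, and single markers varied more than the sum. In HSC WT, HSC KO, CD41low/CD9low WT and CD41low/CD9low KO, Procr had 45.7, 99.0, 165 and 251 CPM. Slamf1 had 82.7, 106, 30.9 and 61.1 CPM. Gfi1b itself had 9256 counts in the HSC WT library and 49910 in the HSC KO library, a ratio of 6.66. In CD41low/CD9low HSCs it had 611 and 9741 counts, a ratio of 10.6. Counts over the whole gene do not separate the floxed exons from the rest of the transcript, so they do not check the label. Each direction below is that of the library labelled KO. The paper itself reports that deletion was checked in HSCs and megakaryocytes by missing expression of the floxed exons. It also cites earlier work in which Itga2b and Itgb3 were up-regulated in Gfi1b-deficient HSCs. Of the integrin genes of megakaryocytes, Itgb3 had KO/WT ratios of 3.32 in HSCs and 2.74 in the CD41low/CD9low pair. Itga2b, which encodes CD41, had ratios of 1.28 and 1.5. Megakaryocyte and platelet genes did not all go this way, as Tubb1 had ratios of 0.208 and 0.272 and Selp of 0.378 and 0.409. The populations were counted on gene lists of different length (38293 and 41214 genes).

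Red cells are made from HSCs through committed progenitors that respond to erythropoietin. In these progenitors GATA1 and KLF1 switch on the genes for heme synthesis, iron uptake, carbonic anhydrases and the red cell membrane, many of them through GATA motifs close to the start site. The products of these genes are characteristic of maturing erythroblasts, while some, such as transferrin receptor and carbonic anhydrase 2, are also made by other dividing or immature blood cells.

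Promoter sequences in the RefSeq table (GRCm38.p6, 250 bases before to 50 after the start) were matched for 6 of the 9 genes, namely Klf1, Epor, Tfrc, Alas2, Rhd and Ermap. GATA motifs, searched as AGATAA or TGATAA on both strands, were present in 5 of these 6 genes, against 18.6% of all 32851 promoters of this length. The 4 sequences shown here are the 80 bases that end before the first annotated transcript base of the erythroid factor Klf1, of the receptor Epor and of the membrane protein genes Rhd and Ermap, because Klf1, Rhd and Ermap were below the lower KO/WT cutoff in both populations and Epor differed in direction between them. Each is written 5′ to 3′ on the gene's strand with the motif in capitals (TTATCA and TTATCT are TGATAA and AGATAA read from the other strand).
Klf1, chr8:84901848-84901927, plus strand: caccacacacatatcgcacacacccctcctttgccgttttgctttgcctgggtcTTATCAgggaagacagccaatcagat
Epor, chr9:21963577-21963656, minus strand: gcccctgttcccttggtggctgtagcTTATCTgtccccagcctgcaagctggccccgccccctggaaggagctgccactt
Rhd, chr4:134864456-134864535, plus strand: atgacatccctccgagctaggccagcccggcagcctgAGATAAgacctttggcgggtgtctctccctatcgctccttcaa
Ermap, chr4:119190012-119190091, minus strand: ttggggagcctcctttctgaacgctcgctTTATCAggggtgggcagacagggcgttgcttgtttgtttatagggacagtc

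Alas2 also held AGATAA, 86 bases before its start, and neither Tfrc entry held a GATA motif. The longer GFI1B core AAATC was found in the promoter of Alas2 alone among the 6 genes, against 35.9% of all promoters. The shorter AATC, the motif the paper names for GFI1B, was not searched, and it stands in the Klf1 window shown above. Lack of AAATC is therefore not lack of a GFI1B motif. The exact letters CCACACCC, a form of the CACCC box that KLF1 binds, were found in none of the 6 and in 3.56% of all promoters. Shorter or variant forms of the box were not searched. In the windows shown, the letters CACCC stand in that of Klf1 and, on the other strand, in those of Rhd and Ermap. Their share over all promoters was not counted. Motif matches are descriptions of these windows and do not show binding.

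Levels differed widely among the 9 genes. Per length of exon, Car2 stood first in all 4 libraries, with 381, 184, 315 and 291 FPKM (counts scaled to the library total and to exon length) in HSC WT, HSC KO, CD41low/CD9low WT and CD41low/CD9low KO, the order used throughout. Tfrc was second in every library, between 8.07 and 19.7 FPKM. Behind these 2 genes the order in HSC WT was Car1, Epor, Klf1, Ermap, Rhd, Slc4a1 and Alas2, where Ermap at 1.81 FPKM (95% interval 1.66 to 1.98) and Rhd at 1.57 (1.31 to 1.87) did not differ beyond counting error. In CD41low/CD9low WT the places behind Tfrc were taken by Rhd at 4.04 FPKM, Slc4a1 at 3.95 and Car1 at 3.46, whose intervals overlapped. Intervals on levels (exact Poisson), on ratios (Clopper-Pearson) and on ratios of ratios (Poisson variance on the log scale) are 95% intervals. All cover counting error only, since reads without molecular identifiers are not independent molecules.

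**Figure D1:**
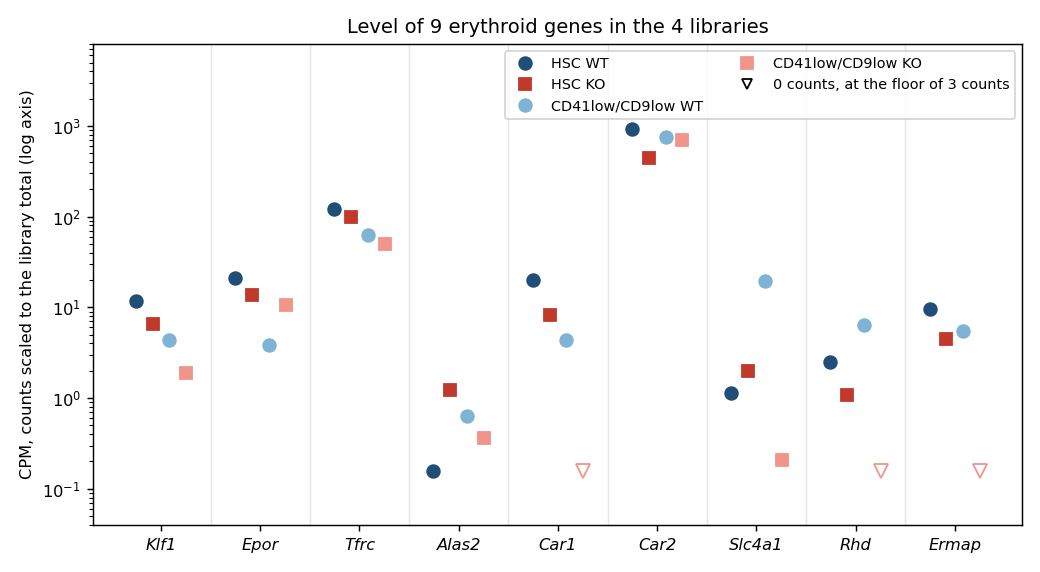
Level in CPM (log axis) of the 9 erythroid genes in the 4 libraries, 1 point per library. Open triangles mark 0 counts, drawn at the level that 3 counts would give (0.157 CPM in the CD41low/CD9low KO library), and a reader should see Car1, Rhd and Ermap at 0 in that library alone.

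In HSCs, 5 of the 9 genes had a KO/WT ratio below 0.6 (Car1, Car2, Ermap, Klf1 and Rhd) and 2 had a ratio above 1.5 (Alas2 and Slc4a1). Over all 15910 genes with at least 10 counts in a library of the pair, 10.3% were below 0.6 and 14.1% above 1.5. In CD41low/CD9low HSCs 8 of the 9 genes reached 10 counts, of which 5 had a ratio below 0.6 (Car1, Ermap, Klf1, Rhd and Slc4a1) and 1 above 1.5 (Epor), against 12.1% and 13.4% of 14844 genes. The members were chosen on these same ratios, so nothing is read from that difference. Nearest to the lower cutoff in HSCs were Klf1 inside it at 0.57 and Epor outside it at 0.655. In bulk samples a lower count can come from fewer cells of a type or from less RNA per cell, which cannot be told apart.

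**Figure D2:**
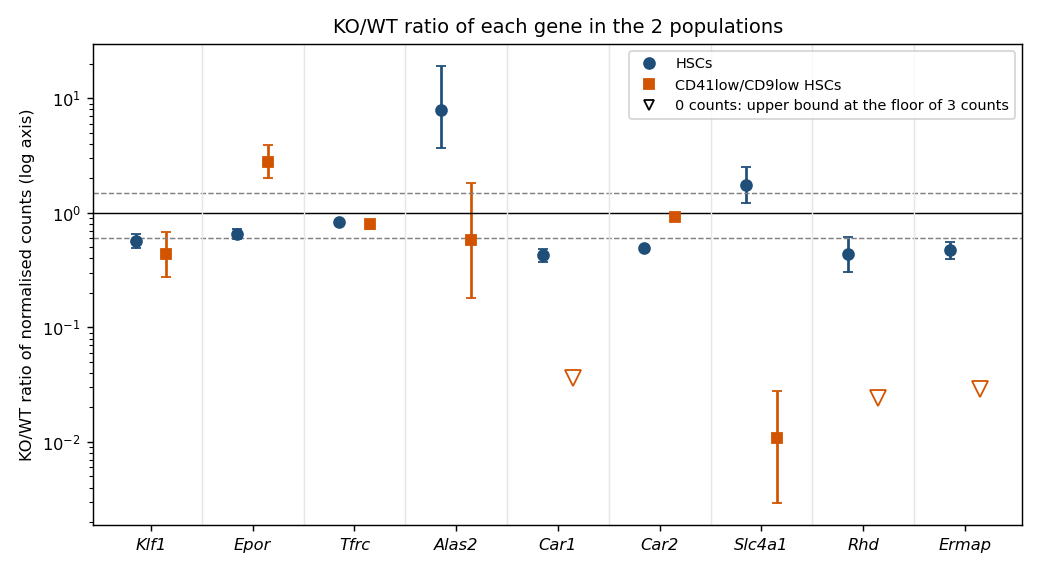
KO/WT ratio of normalised counts (log axis) for each gene in HSCs (circles) and CD41low/CD9low HSCs (squares), with 95% counting intervals and the cutoffs of 0.6 and 1.5 as dashed lines. Klf1, Car1, Rhd and Ermap lie below 0.6 in both populations, where triangles stand for 0 counts drawn at the floor of 3 counts. Epor and Slc4a1 lie on opposite sides of 1, and Alas2 in CD41low/CD9low HSCs rests on 8 and 7 counts.

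Klf1 encodes the Krüppel-like factor that drives terminal erythroid genes (chr8:84901928-84905291, plus strand, 3 exon blocks). It had 598, 276, 55 and 36 counts, or 11.8, 6.62, 4.32 and 1.88 CPM. Both KO libraries were lower than their WT partners, with ratios of 0.57 (0.492 to 0.658) in the HSC pair and 0.436 (0.278 to 0.676) in the CD41low/CD9low pair. The ratio in CD41low/CD9low HSCs divided by that in HSCs, with size factors set over all 4 libraries, was 0.776 (0.498 to 1.21), an interval that includes 1, so that a difference between the populations was not detectable at this depth.

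Of the receptors, Epor binds erythropoietin and keeps erythroid progenitors alive (chr9:21958897-21963506, minus strand, 8 exon blocks). It had 1066, 566, 49 and 205 counts, or 21.0, 13.6, 3.85 and 10.7 CPM. Its KO/WT ratio was 0.655 (0.591 to 0.726) in the HSC pair and 2.79 (2.03 to 3.89) in the CD41low/CD9low pair, so the direction was opposite in the populations. The low point was the CD41low/CD9low WT library, which held the fewest Epor counts of the 4. Tfrc, the transferrin receptor that brings iron into dividing cells (chr16:32608920-32632794, plus strand, 19 exon blocks), was much steadier. It had 6201, 4161, 801 and 955 counts, or 122, 99.8, 62.9 and 49.9 CPM. Its KO/WT ratios were 0.828 (0.796 to 0.862) and 0.795 (0.723 to 0.874), neither past a cutoff.

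Among the enzymes, Alas2 carries out the first and rate-limiting step of heme synthesis in erythroid cells (chrX:150547375-150570638, plus strand, 11 exon blocks). It was barely counted, with 8, 51, 8 and 7 counts. In HSCs the KO library was higher by a ratio of 7.87 (3.71 to 19.2), and in CD41low/CD9low HSCs, under the minimum of 10 counts, the ratio of 0.583 had an interval from 0.18 to 1.84. Alas2 shares 311 exonic bases with Apex2 on the opposite strand, which had up to 1523 counts, and the strand setting of the counting is not given in the sources used here, so the Alas2 counts are uncertain.

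The carbonic anhydrases, which interconvert carbon dioxide and bicarbonate, followed different courses. Car1, made mainly in red cells and gut (chr3:14766216-14808368, minus strand, 8 exon blocks), had 1005, 347 and 55 counts in HSC WT, HSC KO and CD41low/CD9low WT and none in CD41low/CD9low KO. Its KO/WT ratio was 0.426 (0.376 to 0.482) in HSCs. The CD41low/CD9low KO library was 27.5-fold lower when 3 counts, the floor per library, stood in for 0. Without this floor the Car1 ratio had an interval from 0 to 0.0462. Car2, its neighbour on the same chromosome (chr3:14886273-14900770, plus strand, 8 exon blocks) and a gene that stem cells also express, had 46826, 18623, 9700 and 13475 counts, or 922, 447, 762 and 705 CPM. Car2 had a ratio of 0.491 (0.483 to 0.499) in the HSC pair against 0.926 (0.902 to 0.951) in the CD41low/CD9low pair, and the HSC KO library was the low one. With size factors set over all 4 libraries, the second ratio was 1.91 times the first (1.85 to 1.97).

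The membrane protein genes gave the widest range. Slc4a1 encodes band 3, the anion exchanger that anchors the red cell skeleton (chr11:102348824-102366203, minus strand, 25 exon blocks). It had 58, 82, 246 and 4 counts, or 1.14, 1.97, 19.3 and 0.209 CPM. The CD41low/CD9low WT library was far above the other 3. The KO/WT ratio was 1.74 (1.23 to 2.49) in the HSC pair and 0.0108 (0.00293 to 0.0281) in the CD41low/CD9low pair. Over all 14144 genes with enough counts in both populations, 3.85% were past the cutoffs in opposite directions, and among the erythroid genes Slc4a1 was the 1 of 8 that was.

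Rhd encodes the Rh blood group protein of the red cell surface (chr4:134864536-134896172, plus strand, 10 exon blocks) and had 127, 45, 82 and 0 counts. Ermap, an erythroid membrane protein of the immunoglobulin superfamily (chr4:119175457-119190011, minus strand, 13 exon blocks), had 488, 186, 69 and 0 counts. Both genes were lower in the HSC KO library and uncounted in the CD41low/CD9low KO library, although the latter was sequenced more deeply than its WT partner. For Rhd the KO/WT ratio was 0.437 (0.304 to 0.619) in HSCs, and the CD41low/CD9low KO library at the floor was 41.0-fold lower. For Ermap these values were 0.47 (0.395 to 0.558) and 34.5-fold lower. Without the floor the intervals of the CD41low/CD9low ratios ran from 0 to 0.0307 for Rhd and to 0.0366 for Ermap.

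Along with Klf1 and Car1, these were the 4 genes of 8 that were below 0.6 in both populations, and none was above 1.5 in both. Over all genes 5.77% were past a cutoff in the same direction in both, either below 0.6 or above 1.5. Of the 1049 genes with 50 to 99 counts in the CD41low/CD9low WT library, 9 (0.858%) had no count in the KO library. These 9, singled out after their values were seen, were Add2, Car1, Cxcl12, Ermap, Flrt1, Lypd6b, Mcpt8, Rhd and Sipa1l2. In the opposite direction, 14 of the 889 genes with 50 to 99 counts in the KO library (1.57%) had none in the WT library.

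Globins and other marker genes of mature cells moved with some of these values. The summed level of 7 globin genes was 8.7, 24.5, 122 and 6.01 CPM, the order of Slc4a1 across the 4 libraries, with Hba-x at 0 in all of them. The adult beta globins Hbb-bs and Hbb-bt, near-identical genes whose reads can be split uncertainly, had 106, 660, 1009 and 18 counts and 285, 174, 351 and 85 counts. Both were lower in the CD41low/CD9low KO library than in its WT partner, and in HSCs their KO/WT ratios lay on opposite sides of 1 (7.68 and 0.754). The summed level of 10 neutrophil granule genes was 454, 543, 1140 and 287 CPM with none at 0, and that of 6 mast cell and basophil genes was 59.6, 89.4, 32.1 and 3.97 CPM. Of these 6, Fcer1a and Gzmb were at 0 in both CD41low/CD9low libraries and Mcpt8 in the KO library alone, while Cpa3 had 17 and 65 counts in CD41low/CD9low WT and KO. Over 13 megakaryocyte and platelet genes the sums were 2190, 2880, 846 and 905 CPM. The part of these cells in the erythroid values was not tested.

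CD41low/CD9low HSCs were then set against HSCs within each genotype. In the WT libraries 5 of 8 genes had a CD41low/CD9low over HSC ratio below 0.6 (Car1, Epor, Ermap, Klf1 and Tfrc), against 19.7% of all genes, and 2 were above 1.5 (Rhd and Slc4a1), against 19.2%. In the KO libraries 7 of 9 were below 0.6, against 20.4%, and 1 (Car2) was above 1.5, against 19.2%. Each contrast sets 1 library against 1 other counted on a different gene list, so population and library cannot be told apart.

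Tfrc and Klf1 were lower in the CD41low/CD9low library of both genotypes. For Tfrc the ratios were 0.493 (0.457 to 0.53) in WT and 0.479 (0.446 to 0.514) in KO. Klf1 had ratios of 0.351 (0.261 to 0.463) and 0.272 (0.187 to 0.386). Slc4a1 and Rhd, by contrast, differed in direction with genotype. Slc4a1 had a ratio of 16.2 (12.1 to 21.9) in WT and 0.102 (0.0271 to 0.271) in KO. Rhd had a ratio of 2.46 (1.84 to 3.28) in WT. In KO it was 7.19-fold lower at the floor of 3 counts, with an interval from 0 to 0.178 without the floor. Epor had a ratio of 0.175 (0.129 to 0.233) in WT and 0.756 (0.641 to 0.888) in KO. Car2 lay on either side of 1, at 0.79 (0.773 to 0.807) in WT and 1.51 (1.48 to 1.54) in KO, the latter at the cutoff and at 1.47 with TMM factors.

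**Figure D3:**
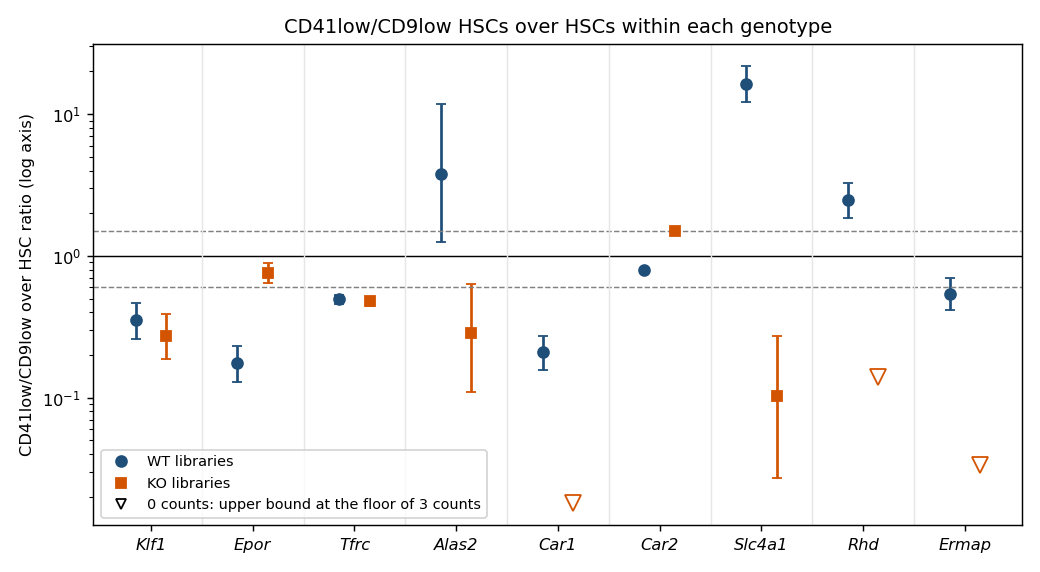
Ratio of CD41low/CD9low HSCs over HSCs (log axis) for each gene within the WT libraries (circles) and the KO libraries (squares), with 95% counting intervals. Dashed lines mark 0.6 and 1.5. Triangles stand for 0 counts in the CD41low/CD9low KO library, drawn at the floor of 3 counts. Slc4a1 lies at 16.2 in WT and 0.102 in KO, whereas Tfrc lies at 0.493 and 0.479.

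The genes nearest to each member in pattern were sought for the 4 members with at least 10 counts in every library, by the distance between centred log2 CPM over the 4 libraries. Tfrc was closest to Anln (distance 0.039), Gapdh (0.045) and Esco2 (0.048), and Car2 to Serpinb8 (0.092), Per1 (0.1) and Igsf3 (0.119). Klf1 was closest to mt-Rnr1 (0.273), Ccdc18 (0.4) and Selp (0.488), and Epor to Alg8 (0.51), Rpl34-ps1 (0.516) and Fbxo5 (0.519). None of these 12 genes is on the erythroid lists. Only genes with at least 50 counts in each of the 4 libraries were searched, however. That left out list genes such as Rhag, Sptb and Add2, so nothing is read from their absence. With 4 libraries many genes share any pattern, and the distances carry no test.

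The other genes of the erythroid programme were counted in 7 lists, of which 108 genes had enough counts in HSCs and 106 in CD41low/CD9low HSCs. In HSCs 12 were above 1.5 and 13 below 0.6, and in CD41low/CD9low HSCs 11 and 13. Over all genes the shares above and below were 14.1% and 10.3% in HSCs and 13.4% and 12.1% in CD41low/CD9low HSCs, so the lists as a whole were near the background. The median log2 ratios over the lists were -0.07 and 0.09, beside 0.0 and 0.01 over all genes. None of the 12 heme synthesis genes was past a cutoff in either population, and their median log2 ratio was -0.03 in each. The 4 farthest from 1 among those with at least 50 counts in each pair were Cpox (0.937 and 0.703), Clpx (0.896 and 1.36), Uros (1.22 and 1.32) and Tmem14c (0.763 and 0.845), giving HSCs first.

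Red cell membrane and skeleton genes were the list with the most members past a cutoff in CD41low/CD9low HSCs. Of its 20 genes, 6 were below 0.6 there, among them Add2, Kel and Sptb, and 4 above 1.5 (Icam4, Mfsd2b, Rhag and Tmod1). In HSCs 6 were below (Cd24a, Epb42, Kel, Rhag, Tmod1 and Tspo2) and 1, Mfsd2b, above. Sptb, the beta chain of erythroid spectrin, had 794, 390, 218 and 3 counts, with KO/WT ratios of 0.606 in the HSC pair and 0.00917 (0.00188 to 0.0272) in the CD41low/CD9low pair. Add2, an adducin that caps the skeleton's actin, had 123, 60, 55 and 0 counts. Rhag, the Rh-associated glycoprotein, had 761, 212, 38 and 91 counts, and its ratios of 0.344 and 1.6 lay on opposite sides of 1, as those of Epor did. Mfsd2b, the sphingosine-1-phosphate exporter of red cells and platelets, had 9275, 17267, 226 and 1640 counts and ratios of 2.3 and 4.84.

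**Figure D4:**
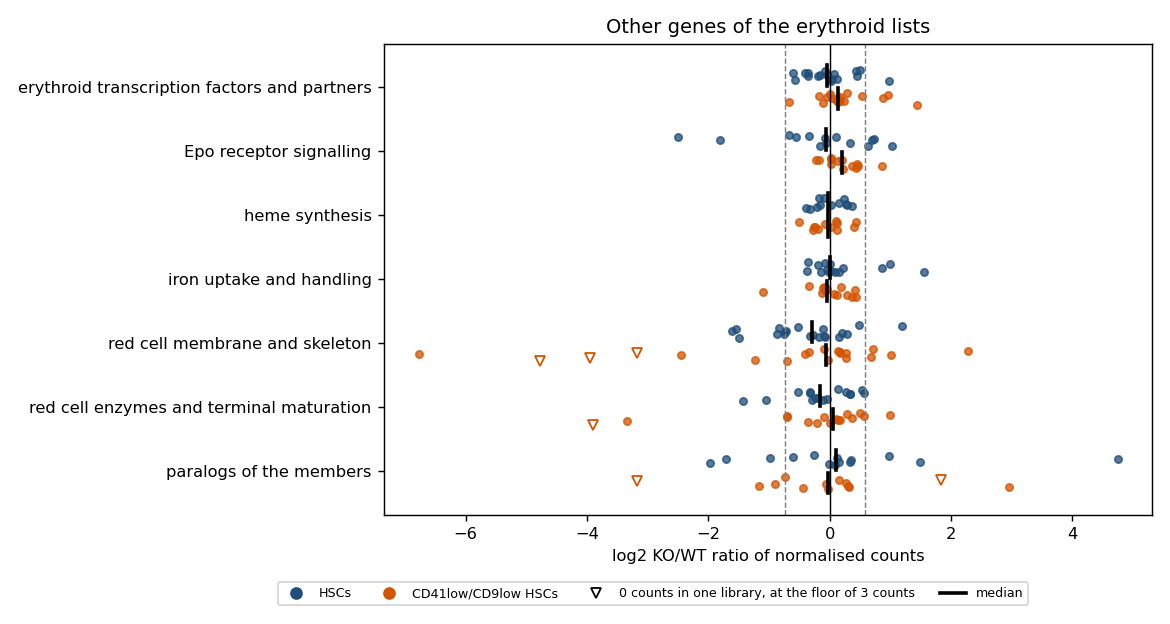
Log2 KO/WT ratio of normalised counts for each gene of the 7 lists, members left out, in HSCs and CD41low/CD9low HSCs; black bars are list medians, dashed lines the cutoffs, and triangles genes at 0 in one library. Heme synthesis genes all lie between the cutoffs, while red cell membrane genes spread to -6.77 in CD41low/CD9low HSCs, the value of Sptb.

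Among the transcription factors and their partners, none of 17 was below 0.6 in either population. Gata2, the GATA factor of stem and progenitor cells, had 14565, 23308, 2541 and 7428 counts and KO/WT ratios of 1.98 and 1.95. Gata1, the GATA factor of erythroid and megakaryocytic cells, had 3197, 2028, 100 and 408 counts and ratios of 0.783 and 2.72. E2f2, a cell cycle factor of erythroblasts, had ratios of 0.755 and 0.629, and Sox6 had 1.37 and 1.84. In the Epo receptor signalling list 4 of 14 genes were above 1.5 in HSCs (Cbl, Gab1, Sh2b3 and Socs2) and 2 below 0.6 (Erfe and Socs3). The signalling inhibitor Socs3 had 1304, 186, 35 and 95 counts and ratios of 0.176 and 1.81.

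Iron uptake and handling had 3 of 15 genes above 1.5 in HSCs (Hfe at 2.93, Ireb2 at 1.98 and Trf at 1.82), and 1 of 15 below 0.6 in CD41low/CD9low HSCs (Hmox1 at 0.466). Of 16 red cell enzymes and maturation genes, 2 were below 0.6 in HSCs (Hemgn at 0.482, and Pklr) and 2 in CD41low/CD9low HSCs (Pklr and Trim10), where 1, Slc6a9, was above 1.5 with 10 and 30 counts. Blvrb had ratios of 0.82 and 0.612, Trim58 of 1.45 and 0.613, and Bpgm, which makes the bisphosphoglycerate that lowers the oxygen affinity of hemoglobin, of 0.871 and 1.48. Among the paralogs of the members, Klf6 had ratios of 0.305 and 1.24, Klf4 of 0.254 and 0.537, and Car8 of 26.9 and 7.78. Csf2rb had ratios of 1.97 and 1.23, and Slc4a3 of 0.987 and 0.6.

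The genotype effect was tested with the populations as its repeats, in an edgeR quasi-likelihood fit with population as a covariate and Benjamini-Hochberg adjustment. By the methods, marrow was pooled before the populations were sorted, so both libraries of a genotype may come from the same mice. They are then not independent repeats of the deletion, a limit that every alternative fit below shares. With 1 residual degree of freedom its prior degrees of freedom were estimated as infinite, so that the spread was taken as known and p-values are likely too small. Of 16262 genes, 263 (1.62%) were called higher and 194 (1.19%) lower in KO at an adjusted p under 0.05, and with the alternative quasi-dispersion estimate of the same tool, whose prior degrees of freedom were 10.6, only 92 and 35 were. Of 108 list genes that are no members, 8 and 5 were called at first and 3 and 1 with that estimate. Gata2 rose by 0.96 on the log2 scale (edgeR adjusted p 1.81e-08, and at most 0.00548 over 5 alternative fits) and Mfsd2b rose by 1.69 (2.55e-22, and at most 0.0049). Apart from Gfi1b, which was left out of the counts of list genes, these 2 were the list genes called in every alternative. Sptb had a log2 change of -2.75 with an adjusted p of 1.15e-08 that reached 0.774 in an alternative, and it was called in 2 of 5 of them. The other 10 calls were Car8, Cbl, Csf2rb, Ireb2, Sox6 and Zfpm1 (higher) and Hemgn, Klf2, Klf4 and Klf6 (lower). Of these Klf6, at 0.305 in HSCs, was above 1 in CD41low/CD9low HSCs.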

How the data were processed

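Poly(A) RNA of sorted cells had been sequenced by the authors as stranded libraries (HiSeq 2000), aligned to mm10 with TopHat2 2.0.10 and counted per Ensembl gene with HTSeq. The deposited values are raw counts per gene, not normalised. HTSeq's version, its strand setting and the Ensembl release are not given in the sources used here, and the authors' DESeq results were not used. Between 60.1 and 105.3 reads without a feature per 100 gene counts were left out of totals. Symbols and coordinates came from GENCODE M21 (GRCm38). Members and lists were chosen with earlier results of these data known.

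Ratios were computed from counts divided by median-of-ratios size factors of the pair (all 4 libraries for ratios between populations), for genes with at least 10 counts in a library of the pair, with the study's cutoffs of 1.5 and 0.6. Against 0 counts a floor of 3 counts per library was set (0.059, 0.072, 0.236 and 0.157 CPM). The population-adjusted fit used edgeR 4.0.16 (TMM; R 4.3.3), with DESeq2 1.42.0 as an alternative. It was tested on simulated data in which 92.5% of 200 genes changed 3-fold among 16262 were recovered with 5 false calls. That simulation gave every gene the same spread and no difference between populations. It therefore does not measure how many calls are false in these data. No library had a replicate. The text names the 9 members, Gfi1b, and from each list up to 4 genes with the KO/WT ratio farthest from 1 in either direction (log2 scale) among those with at least 50 counts in each pair, plus genes called by the fit; other names were added after their values were seen, and some list genes are not reported here. Of 115 list genes 112 were matched. MKs were not analysed here.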

Additional observations from a re-analysis of the deposited data

Results flagged for a closer look

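Epor and Slc4a1 stood out because their KO/WT ratios lay on opposite sides of 1 in the 2 populations. Epor had a ratio of 0.655 in HSCs and 2.79 in CD41low/CD9low HSCs. Slc4a1 had a ratio of 1.74 in HSCs and 0.0108 in CD41low/CD9low HSCs. In all 4 cases the counting interval excluded 1, but with 1 library per group the difference was not tested. Alas2 also lay on opposite sides, at 7.87 and 0.583. Its second ratio was under the minimum of 10 counts, with an interval from 0.18 to 1.84. The share of all genes with ratios on opposite sides of 1 was not counted, so how unusual this is remains unknown.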

How the results depend on the processing

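No paired analysis was possible because the labels give no replicate numbers and there was 1 library per group, and leaving out a library leaves no residual degree of freedom. The numbers of members past the KO/WT cutoffs were the same in both populations under TMM factors, total counts, size factors over all 4 libraries and a pseudocount of 1. Counts over all genes depended on the filter. Without it 4354 genes were higher and 2649 lower in HSCs, and 3113 higher in CD41low/CD9low HSCs. With at least 50 counts these were 1431 and 792 in HSCs and 980 and 703 in CD41low/CD9low HSCs, where list genes were 7 higher and 5 lower. Leaving out genes at 0 in a library, an alternative chosen after seeing the data, left 8 list genes lower there. In the shared fit (263 higher and 194 lower, 8 and 5 of them list genes), DESeq2 called 70 and 30 (3 and 0 on the lists, or 11 and 10 at an unadjusted p under 0.05), RLE normalisation 145 and 95 (6 and 2), the filter of 50 counts 80 and 48 (2 and 1), and the other quasi-dispersion estimate, also added after seeing the data, 92 and 35 (3 and 1). The cause of these differences was not tested. Depth limits Alas2 most, with at most 8 counts in 3 of the 4 libraries.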
